A study of Mus musculus with 4 samples.

Results

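The 44 genes described here build, feed, police and reshape the mitochondrion. They were chosen by name for their function in mitochondrial import, proteostasis, dynamics and genome maintenance, with earlier results of these data known. All 44 had a value among the 13677 genes measured. RNA sequencing was done on mouse inguinal white adipose tissue, a fat depot under the skin. The 2 groups were FLCNKO, 2 libraries from animals with an adipose knockout (adipKO) of Flcn, and WT, 2 libraries from wildtype animals. Flcn encodes the tumour suppressor folliculin, and the series concerns its place in an mTOR pathway and in browning, by which white fat takes on features of heat-producing fat. The sources used here do not give the promoter that drives the deletion, the deleted part of the gene, or the age, sex and strain of the animals. No label ties a library to 1 animal, so the p-values rest on the spread between libraries alone, which may be technical.

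Nearly all mitochondrial proteins are encoded in the nucleus and made in the cytosol. They enter through the TOM channel of the outer membrane and the TIM channels of the inner membrane, are pulled in and folded by mitochondrial Hsp70 and the Hsp60/Hsp10 chaperonin, and are removed by ATP-driven proteases when damaged or surplus. The organelle keeps its own small genome, which a dedicated polymerase and RNA polymerase copy and read, and its shape is set by GTPases that fuse or divide it and by a complex that folds the inner membrane into cristae. Heat-producing adipocytes are packed with mitochondria rich in cristae, so this machinery is known to be more abundant in them than in white adipocytes.

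Every value is a deposited log2 expression value, so a difference of 1 is a doubling (2-fold). Values are not per transcript length, and levels of different genes are not compared. A log2 fold change is the FLCNKO mean minus the WT mean, given with its SE from limma, which fits all 13677 genes and adjusts p over all of them, and a gene is said to have risen or fallen only at an adjusted p under 0.05. The deposited values share nearly 1 distribution, with library medians from 10.7636 to 10.7645, so a shift common to most genes cannot be seen, and the sequencing depth behind them is unknown. Flcn itself had 12.35 and 12.12 in the libraries labelled FLCNKO, against 12.36 and 12.21 in WT. The groups overlapped, with a difference of -0.052 ± 0.13 (SE; adjusted p = 0.852 by limma). Without knowing which part of the gene is deleted, this value cannot check the labels, and the groups are called by them.

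These promoters are printed because their genes carry the results below. Chchd10 and Spg7 are the 2 members that rose, Hspe1 and Hspd1 have overlapping windows, and Opa1 holds the longest motif searched for. They come from RefSeq (build GRCm38.p6) and span 250 bases before to 50 after the start site, 5′ to 3′ on the strand of the gene. Capitals mark matches, on either strand, to the 10-base palindrome of NRF1 (the first 10 capitals in the Opa1 line), to its half-site TGCGCA, to AAGGTCA of the ERR receptors or to CCGGAAG of the ETS factors, the family of GABPA.
Chchd10 (chr10:75932880-75933179, + strand): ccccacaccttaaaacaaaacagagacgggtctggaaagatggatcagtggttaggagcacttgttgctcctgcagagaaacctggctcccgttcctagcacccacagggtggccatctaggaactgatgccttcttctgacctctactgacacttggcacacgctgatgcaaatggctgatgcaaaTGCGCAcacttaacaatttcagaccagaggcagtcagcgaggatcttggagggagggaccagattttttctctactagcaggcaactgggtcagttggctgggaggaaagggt
Spg7 (chr8:123065258-123065557, + strand): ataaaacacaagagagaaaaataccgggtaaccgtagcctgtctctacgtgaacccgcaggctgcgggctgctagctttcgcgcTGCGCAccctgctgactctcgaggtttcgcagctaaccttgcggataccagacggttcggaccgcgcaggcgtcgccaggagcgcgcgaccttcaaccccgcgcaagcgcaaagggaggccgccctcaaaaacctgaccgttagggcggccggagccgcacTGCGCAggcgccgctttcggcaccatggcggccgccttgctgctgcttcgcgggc
Hspe1 (chr1:55087898-55088197, + strand): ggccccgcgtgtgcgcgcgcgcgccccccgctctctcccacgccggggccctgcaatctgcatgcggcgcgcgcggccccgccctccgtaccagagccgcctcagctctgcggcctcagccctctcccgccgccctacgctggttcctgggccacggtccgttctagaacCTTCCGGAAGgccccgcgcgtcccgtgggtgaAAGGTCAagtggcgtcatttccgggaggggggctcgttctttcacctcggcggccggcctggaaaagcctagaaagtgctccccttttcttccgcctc
Opa1 (chr16:29579084-29579383, + strand): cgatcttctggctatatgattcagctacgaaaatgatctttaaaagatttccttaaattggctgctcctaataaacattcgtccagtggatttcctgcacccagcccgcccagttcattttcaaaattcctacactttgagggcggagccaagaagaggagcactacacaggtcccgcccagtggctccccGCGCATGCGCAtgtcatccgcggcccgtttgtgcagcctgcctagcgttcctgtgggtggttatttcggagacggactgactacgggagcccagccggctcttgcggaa

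The promoters of 40 members were in the table, as 49 windows. CCGGAAG occurred in 44.9% of the member windows, against 16.2% of the 13520 windows of all measured genes in the table. TGCGCA occurred in 20.4% of member windows and 12.7% of measured windows, and AAGGTCA in 12.2% of member windows and 3.39% of measured windows. The full 10-base NRF1 motif was found in 1 member window, that of Opa1, or 2.04%, against 1.93% of measured windows. In the Opa1 window the 10-base motif and the half-site overlap. The table lists 2 start sites for Hspd1, on the strand opposite to Hspe1. The first lies head to head with that of Hspe1, and their windows share 285 bases, so the pair of overlapping ETS matches and the ERR match counted for Hspd1 are the same bases as those printed for Hspe1. The second lies beyond the start of Hspe1, and its window shares 4 bases with that of Hspe1 and holds no match. These matches describe letters in a window, not bound sites.

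Across the 44 members the values were higher in the libraries labelled FLCNKO. Of the members 42 had a log2 fold change above 0, against 50.4% of all genes. In 36 members both FLCNKO libraries lay above both WT libraries, against 29.2% of all genes, and in 1 member, Nrf1, both lay below, against 25.4% of all genes. The other 7 overlapped: Tfam, Polg, Polg2, Tomm22, Yme1l1, Oma1 and Fis1. The median log2 fold change was 0.52 over the members and 0.0046 over all genes. At least 0.5 was reached by 23 members, or 52.3%, against 12.8% of all genes.

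After adjustment, 2 members rose, Chchd10 and Spg7, where 0.980% of all genes were called higher, and 0 fell, where 0.614% were called lower. At an unadjusted p under 0.05, limma had 28 members higher, against 12.1% of all genes, and 0 members lower, against 10.3% of all genes. A further 15 members, all higher, had an adjusted p between 0.05 and 0.1, against 6.88% of all genes in either direction and 3.82% higher. Both calls rest on all 4 libraries: limma called 0 members, and 0 of all genes, when any 1 library was left out. The 28 members became 15 without WT replicate 1, 17 without WT replicate 2, 27 without FLCNKO replicate 1 and 35 without FLCNKO replicate 2. Without the mean-variance trend limma called 0 members, with 26 higher at an unadjusted p under 0.05.

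The members' library medians were 13.01 and 12.60 in the libraries labelled FLCNKO, against 12.39 and 12.36 in WT. FLCNKO replicate 1 lay above both WT libraries in 39 members and FLCNKO replicate 2 in 38. Replicate 1 was the higher of the FLCNKO pair in 35 members (79.5%, against 48.6% of all genes). The WT libraries lay closer together: the median absolute log2 difference between libraries over the members was 0.286 within FLCNKO and 0.0934 within WT, and from 0.383 to 0.617 across the groups.

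**Figure D1:**
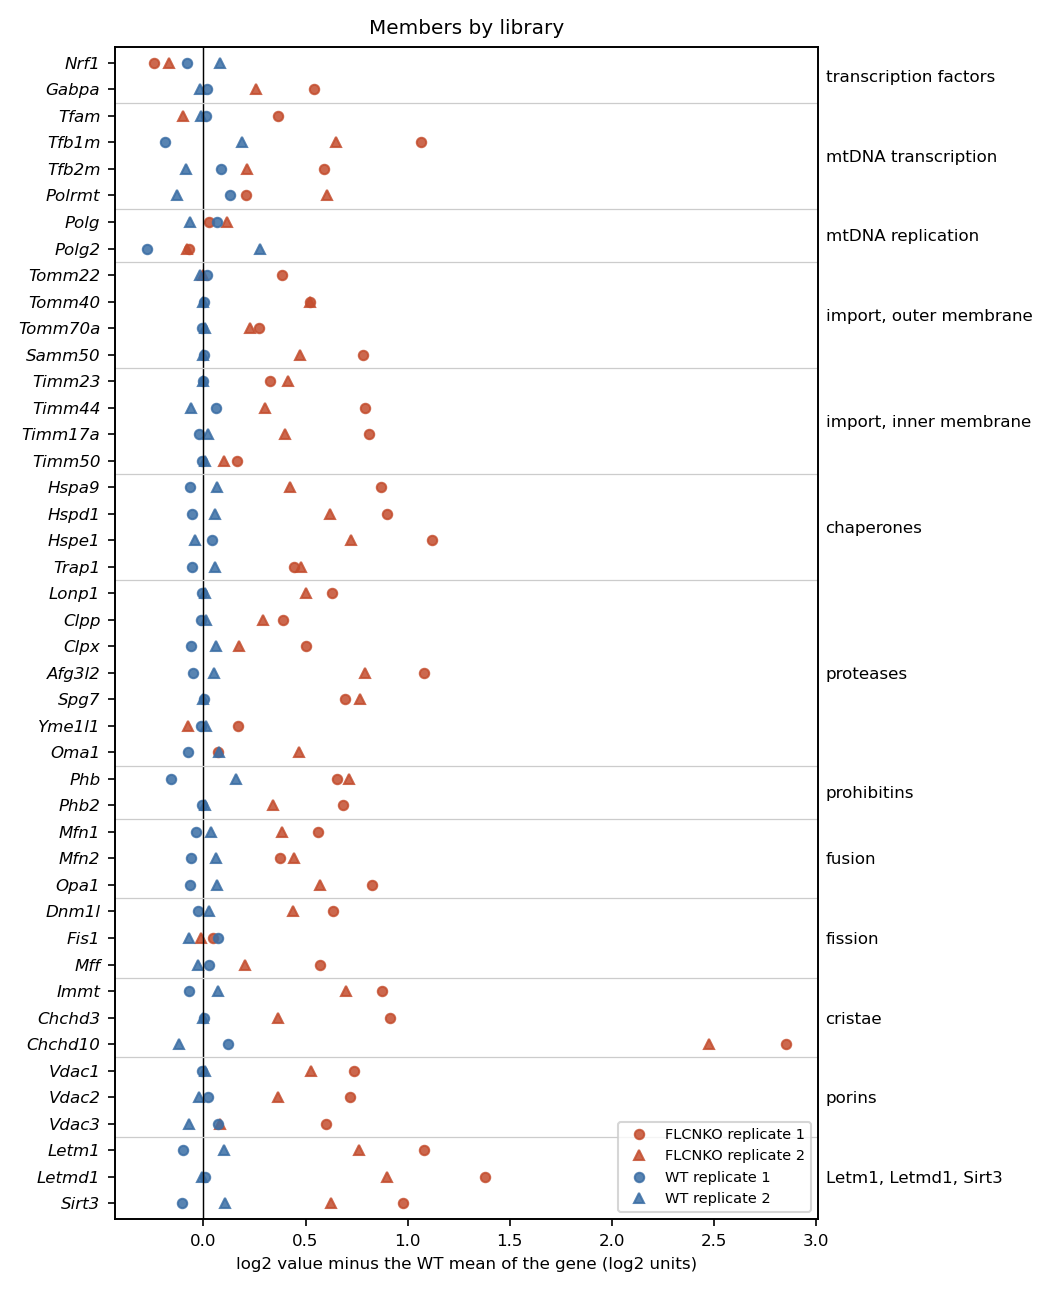
Log2 value of each of the 44 members in each of the 4 libraries, minus the mean of the 2 WT libraries of that gene (horizontal axis, log2 units). Genes run down the page by function, red symbols are FLCNKO, blue symbols WT, circles replicate 1 and triangles replicate 2. In 36 genes both red symbols lie right of both blue ones, and Chchd10 stands farthest to the right.

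Proteins that shape the inner membrane held the largest change. Chchd10, a small protein of the intermembrane space at cristae, had 14.05 and 13.67 in the libraries labelled FLCNKO, against 11.31 and 11.07 in WT. Both FLCNKO libraries were more than 2 log2 units above both WT libraries. Chchd10 rose 6.36-fold (2.67 ± 0.17 on the log2 scale, SE; limma adjusted p = 0.0336), with a 95% interval of 4.68 to 8.62-fold. It ranged from 2.48 to 2.86 on the log2 scale over the fits that left out 1 library, with adjusted p-values of 0.0615 to 0.212.

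Immt, or mitofilin, the core of the MICOS complex that forms the necks of cristae, had 15.16 and 14.99 in the libraries labelled FLCNKO, against 14.22 and 14.36 in WT. The groups did not overlap, and the difference of 0.79 ± 0.12 (SE) missed the threshold (limma adjusted p = 0.0556). Chchd3, another MICOS subunit, differed by 0.64 ± 0.20 (SE; limma adjusted p = 0.152), also without overlap, and by 0.37 without FLCNKO replicate 1. Samm50 of the outer membrane, which inserts barrel proteins there and holds MICOS at contact sites, is given with the import genes.

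Among the ATP-driven proteases of the member list, Afg3l2 and Spg7 had the largest differences. Both encode subunits of the m-AAA protease, which faces the matrix. Spg7, or paraplegin, had 13.21 and 13.28 in the libraries labelled FLCNKO, against 12.52 and 12.51 in WT. Spg7 rose 1.66-fold (0.73 ± 0.10 on the log2 scale, SE; limma adjusted p = 0.0481; 95% interval 1.39 to 1.98-fold), and was between 0.70 and 0.76 when 1 library was left out, with adjusted p-values of 0.073 to 0.356. Its partner Afg3l2 had 13.74 and 13.45 in the libraries labelled FLCNKO, against 12.61 and 12.71 in WT. Afg3l2 thus differed more than Spg7, by 0.94 ± 0.14 (SE), yet missed the threshold (limma adjusted p = 0.0517). Afg3l1, which also encodes an m-AAA subunit in mice and is not a member, differed by 0.34 (limma adjusted p = 0.221).

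The other proteases spread widely. Lonp1, the Lon protease of the matrix, differed by 0.57 ± 0.11 (SE; limma adjusted p = 0.0691). Clpp, the peptidase of the ClpXP protease, and Clpx, its unfoldase, had 0.34 each, with adjusted p-values of 0.163 and 0.262. The stress-activated protease gene Oma1, whose product cuts OPA1, had 0.27 with overlapping groups (0.47 without FLCNKO replicate 1 and 0.073 without replicate 2). Yme1l1, the i-AAA protease that faces the intermembrane space, had 13.48 and 13.24 in the libraries labelled FLCNKO, against 13.30 and 13.33 in WT. That is a difference of 0.047, 95% interval -0.27 to 0.37. Without FLCNKO replicate 1 it was -0.076. The prohibitins, which form rings around the m-AAA protease in the inner membrane, did not overlap between groups (54.6% of all genes did not). Phb had 12.12 and 12.18 in the libraries labelled FLCNKO, against 11.31 and 11.63 in WT (difference 0.68 ± 0.14, SE; limma adjusted p = 0.0825), and Phb2 differed by 0.51.

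All 4 chaperone genes were higher in both libraries labelled FLCNKO (29.2% of all genes were), none past the threshold. The co-chaperonin gene Hspe1, whose product is the lid of the Hsp60 barrel, had 12.73 and 12.33 in the libraries labelled FLCNKO, against 11.65 and 11.56 in WT. The difference was 0.92 ± 0.16 (SE; limma adjusted p = 0.0641). Hspd1, which encodes the barrel, had 15.13 and 14.85 in the libraries labelled FLCNKO, against 14.18 and 14.29 in WT, and differed by 0.76 ± 0.14 (SE; adjusted p = 0.0658). These are the genes whose windows overlap in the promoter printed above. Hspa9, the mitochondrial Hsp70 that drives import into the matrix, differed by 0.65 and Trap1, the mitochondrial Hsp90, by 0.46, with limma adjusted p-values of 0.129 and 0.095.

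Median log2 fold changes of the import genes were 0.39 for the outer and 0.46 for the inner membrane, against 0.70 for the chaperones. Tomm40, the pore of the TOM complex, had 11.70 in both libraries labelled FLCNKO, against 11.18 in both WT libraries (difference 0.52 ± 0.11, SE; limma adjusted p = 0.0789). Samm50 differed by 0.63 ± 0.14 (SE; adjusted p = 0.0877). The receptor genes of the TOM complex differed by 0.25 (Tomm70a) and 0.19 (Tomm22), and the groups overlapped for Tomm22, whose value was -0.00085 without FLCNKO replicate 1. In the inner membrane Timm17a, a core subunit of the TIM23 channel, had 13.02 and 12.61 in the libraries labelled FLCNKO, against 12.18 and 12.23 in WT. It differed by 0.61 ± 0.16 (SE; limma adjusted p = 0.119). Timm44, which tethers Hsp70 to the channel, differed by 0.55 (0.30 without FLCNKO replicate 1), the channel subunit Timm23 by 0.37 and the receptor Timm50 by 0.13. Both WT libraries had Timm23 at exactly 7.38, a low value where the deposited scale moves in steps.

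Some members share sequence with other genes. More than 20% of the 31-base stretches of 5 members also occur in transcripts of other genes: 63.5% for Timm23, 53.1% for Hspd1, 36.4% for Tfb2m, 34.4% for Phb and 30.5% for Hspe1. The sources used here do not say how the authors counted such reads, so values of these 5 genes are uncertain. The other 39 members had a median log2 fold change of 0.51, both calls and 25 members higher at an unadjusted p under 0.05, a check chosen after the data were seen. Chchd10 shared 8.30% of its stretches and Spg7 0.707%.

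The genes of fusion were higher in both libraries labelled FLCNKO (29.2% of all genes were). Opa1, the GTPase that fuses inner membranes, had 13.96 and 13.71 in the libraries labelled FLCNKO, against 13.07 and 13.20 in WT (difference 0.70 ± 0.13, SE; limma adjusted p = 0.0698). The mitofusin genes Mfn1 and Mfn2, whose products fuse outer membranes, differed by 0.47 and 0.41, with adjusted p-values of 0.106 and 0.119. Of the fission genes, Dnm1l, the dynamin that cuts the organelle, had 13.27 and 13.08 in the libraries labelled FLCNKO, against 12.61 and 12.67 in WT. It differed by 0.54 ± 0.12 (SE; limma adjusted p = 0.0877). Mff, a receptor that brings this dynamin to the outer membrane, differed by 0.39 without overlap, and by 0.20 without FLCNKO replicate 1. Fis1, an outer membrane protein also linked to fission, had 12.56 and 12.50 in the libraries labelled FLCNKO, against 12.58 and 12.44 in WT. It differed by 0.018 (95% interval -0.26 to 0.30), and its sign turned when 1 library was left out, to -0.051 without WT replicate 2 and -0.011 without FLCNKO replicate 1.

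The outer membrane channels VDAC1 to VDAC3, or porins, pass metabolites such as ATP. Vdac1 had 14.93 and 14.72 in the libraries labelled FLCNKO, against 14.19 and 14.20 in WT, a difference of 0.63 ± 0.12 (SE; limma adjusted p = 0.0702). Vdac2 differed by 0.54 and Vdac3 by 0.34, with adjusted p-values of 0.125 and 0.382, and neither overlapped between groups. For Vdac3, FLCNKO replicate 2 (11.69) lay just above WT replicate 1 (11.68), and the difference was 0.079 without FLCNKO replicate 1.

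The remaining genes of the inner membrane and matrix, 3 in number, had a median log2 fold change of 0.92, the highest of the 13 groups of members. They were grouped as the rest and share no single function, and the cristae group came next at 0.79. Letmd1, an inner membrane protein needed by brown fat mitochondria in mice, had 13.44 and 12.96 in the libraries labelled FLCNKO, against 12.07 and 12.05 in WT. After Chchd10 this was the largest difference, 1.14 ± 0.18 (SE; limma adjusted p = 0.0556), or 2.20-fold with a 95% interval of 1.60 to 3.03-fold. Letm1, which shares a domain with it and takes part in ion exchange across the inner membrane, had 13.80 and 13.49 in the libraries labelled FLCNKO, against 12.62 and 12.83 in WT (0.92 ± 0.15, SE; adjusted p = 0.0604). Sirt3, the main deacetylase of the matrix, had 11.65 and 11.30 in the libraries labelled FLCNKO, against 10.57 and 10.78 in WT. It differed by 0.80 ± 0.17 (SE; limma adjusted p = 0.0835).

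Genes that copy and read the mitochondrial genome differed less evenly. Tfb1m, which methylates the ribosomal RNA of the organelle, had 10.08 and 9.66 in the libraries labelled FLCNKO, against 8.82 and 9.20 in WT. The difference was 0.86 ± 0.23 (SE; limma adjusted p = 0.119). Polrmt, the mitochondrial RNA polymerase, and Tfb2m, the factor that opens promoters for it, differed by 0.41 and 0.40, without overlap (limma adjusted p = 0.287 and 0.275). Polrmt differed by 0.21 without FLCNKO replicate 2, and Tfb2m by 0.21 without FLCNKO replicate 1. Tfam, which packages the genome and starts its transcription, had 11.74 and 11.28 in the libraries labelled FLCNKO, against 11.39 and 11.36 in WT. Replicate 1 was above and replicate 2 below both WT libraries (log2 fold change 0.13, 95% interval -0.33 to 0.60), and without FLCNKO replicate 1 the value was -0.10. The catalytic subunit of the replicative DNA polymerase, Polg, had 12.39 and 12.48 in the libraries labelled FLCNKO, against 12.43 and 12.30 in WT (0.072, 95% interval -0.22 to 0.36). Its accessory subunit Polg2 had -0.076, with a 95% interval from -0.68 to 0.53, and 0.20 without WT replicate 2.

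The members also include a pair of nuclear transcription factors known to drive genes of this machinery. Nrf1 had 10.02 and 10.09 in the libraries labelled FLCNKO, against 10.18 and 10.34 in WT. It differed by -0.21 ± 0.14 (SE; adjusted p = 0.452 by limma; 95% interval -0.57 to 0.15). Gabpa, the DNA-binding subunit of the ETS factor GABP, also called NRF2, had 12.63 and 12.35 in the libraries labelled FLCNKO, against 12.11 and 12.07 in WT (0.40 ± 0.14, SE; adjusted p = 0.179). The coactivator genes that work with these factors rose: Ppargc1a had 10.70 and 10.82 in the libraries labelled FLCNKO, against 9.53 and 9.74 in WT, and Ppargc1b had 10.49 and 10.54 in the libraries labelled FLCNKO, against 8.48 and 9.01 in WT (limma adjusted p = 0.0476 and 0.0438). Esrra, a nuclear receptor partner of the coactivators, differed by 0.57 (adjusted p = 0.0991).

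**Figure D2:**
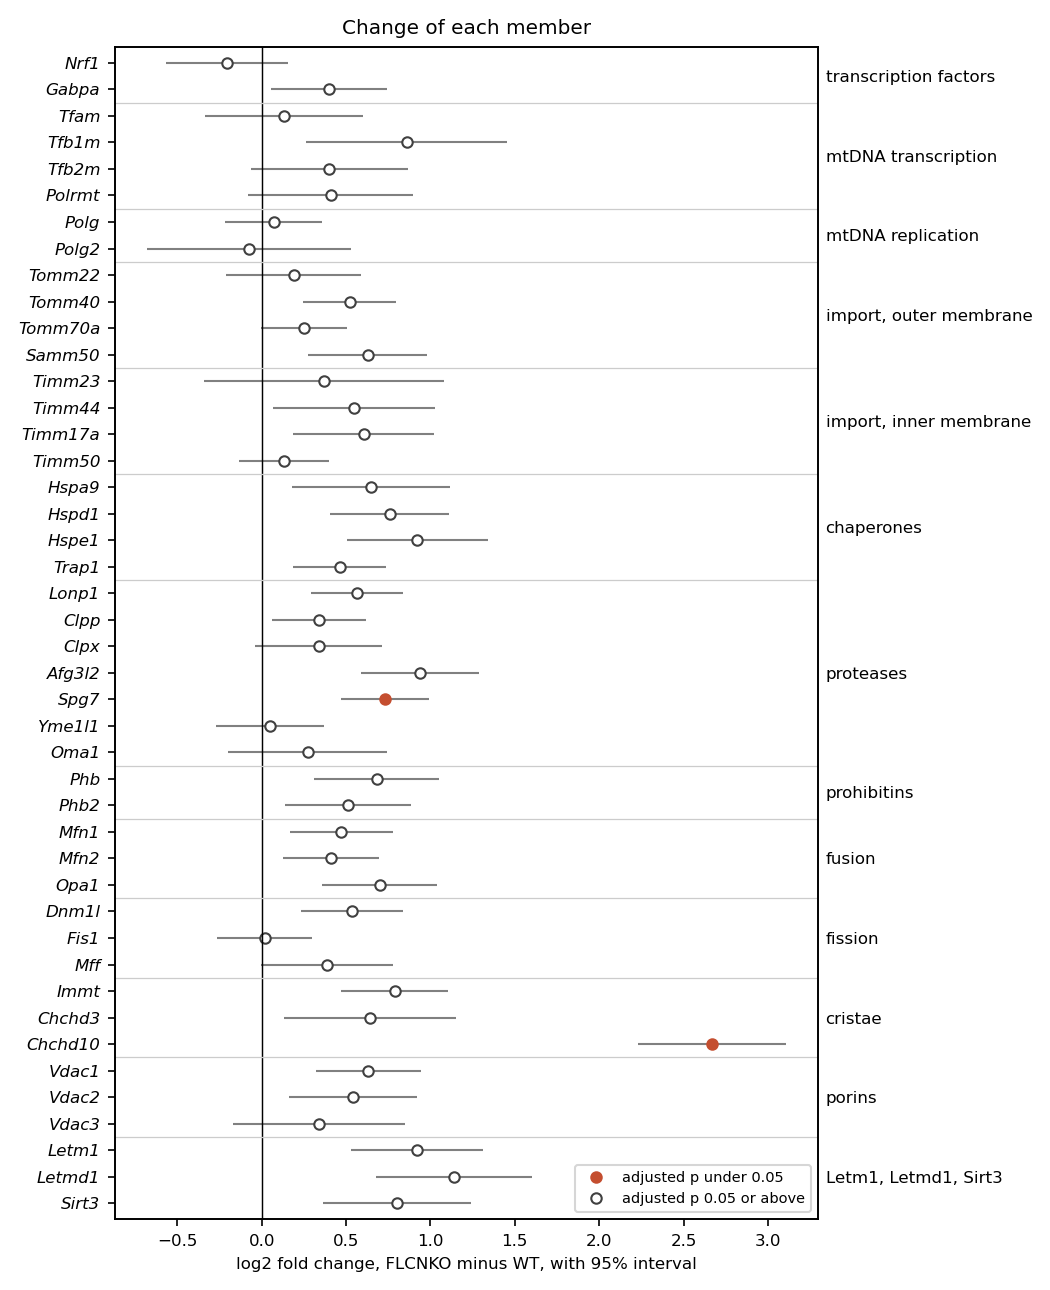
Log2 fold change (FLCNKO minus WT, horizontal axis) of each of the 44 members, with its 95% interval from limma as a line. Filled points have an adjusted p under 0.05 over all genes (Chchd10 and Spg7), and open points do not. The intervals of 28 members lie above 0 and those of 16 hold 0.

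Related members, only some of them partners in 1 machine, were compared as the difference of their log2 values in each library, for 11 pairs. With 2 libraries a group the smallest p that an exact two-sided permutation test allows is 0.333, so none can pass, and the smallest adjusted p over the 11 pairs was 0.917. For 4 of the 11 pairs the groups did not overlap. The share of 54.6% over all genes is for single values, and no share over differences of pairs was computed. Tfb2m minus Tfb1m was 0.60 and 0.64 in the libraries labelled FLCNKO, against 1.35 and 0.80 in WT. Vdac1 minus Vdac3 was 2.73 and 3.03 in the libraries labelled FLCNKO, against 2.51 and 2.66 in WT. Opa1 minus Dnm1l was 0.69 and 0.63 in the libraries labelled FLCNKO, against 0.46 and 0.53 in WT. For Hspe1 minus Hspd1 the values were -2.40 and -2.52 in the libraries labelled FLCNKO, against -2.53 and -2.73 in WT. The other 7 pairs overlapped, among them Mfn2 and Mfn1, Phb2 and Phb, Clpx and Clpp, and Afg3l2 and Spg7.

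A wider list of genes with the same functions held 97 measured genes of 104 listed. It was chosen by function, but with earlier results of these data known. Of these 1 rose and 0 fell by limma (0.980% and 0.614% of all genes). Without overlap, 72 were higher (29.2% of all genes) and 4 lower (25.4% of all genes). At an unadjusted p under 0.05, 47 were higher (12.1% of all genes) and 1 lower (10.3%). Their median log2 fold change was 0.33. Timm10, a chaperone that escorts carrier proteins across the intermembrane space, had 11.29 and 10.93 in the libraries labelled FLCNKO, against 9.79 and 9.73 in WT. Timm10 rose by 1.36 ± 0.17 (SE; limma adjusted p = 0.0431), and 0 genes of the list were called when any 1 library was left out.

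The largest differences that did not pass were those of Ppif, the cyclophilin of the permeability transition pore (1.58), Timm8a1, another small intermembrane space chaperone (1.58), and Timm9, the partner of Timm10 (0.87). Apoo (1.49) and Apool (0.88) encode MICOS subunits, Mtfp1 (1.38) a fission regulator, Immp2l (1.15) an inner membrane peptidase, Aifm1 (0.996) the apoptosis-inducing factor and Mgme1 (0.91) a nuclease of the mitochondrial genome. By function the medians were 0.65 for 7 cristae genes, 0.43 for 26 import genes, 0.37 for 22 peptidase and quality control genes, 0.33 for 17 genome genes, 0.27 for 14 dynamics genes and 0.08 for 11 genes of ion exchange and deacylation. The 1 lower gene at an unadjusted p under 0.05, named after its value was seen, was Mcub (-0.59), the dominant-negative subunit of the calcium uniporter.

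**Figure D3:**
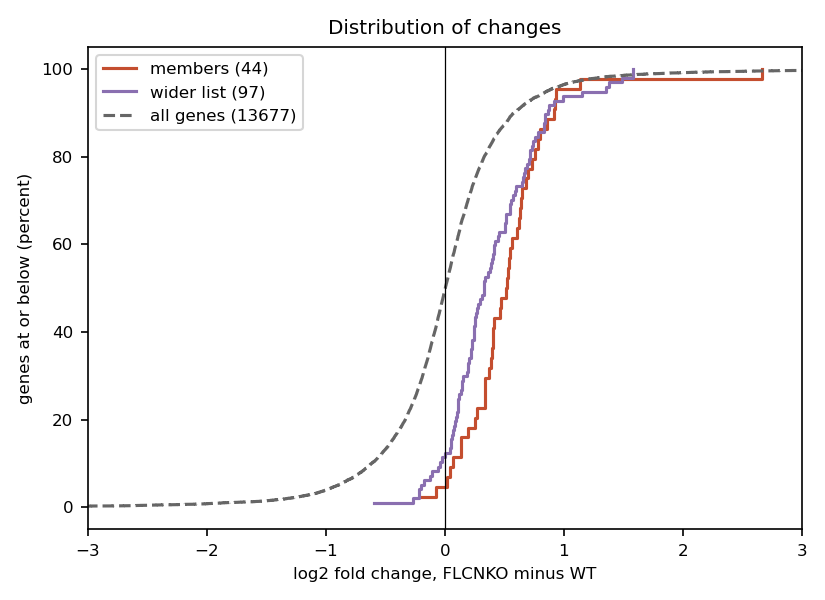
Cumulative share of genes (vertical axis, percent) at or below each log2 fold change, FLCNKO minus WT (horizontal axis, drawn from -3 to 3), for the 44 members, the 97 genes of the wider list and all 13677 genes. The members' median is 0.52 and that of the wider list 0.33, against 0.0046 for all genes.

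Marker lists of cell types differed in direction. The brown and beige adipocyte list had a median log2 fold change above 0, as the members had. The endothelial median was 0.061 and the white adipocyte median -0.091. The medians of the skeletal muscle, macrophage, fibroblast and matrix, and epithelial lists were also below 0. In bulk tissue, fewer cells of a type and less RNA per cell cannot be told apart. Of 15 skeletal muscle markers, another tissue rich in mitochondria, 15 had a log2 fold change below 0 and 14 overlapped between groups. Their library medians were 12.01 and 5.21 in the libraries labelled FLCNKO, against 12.89 and 9.85 in WT. FLCNKO replicate 2 had the lowest muscle median of the 4 libraries. The summed muscle level, as the log2 of the sum, was 16.37 and 13.41 in the libraries labelled FLCNKO, against 17.49 and 14.43 in WT, and 2 of the markers, Myh2 and Myoz1, stood at 2.37, the lowest value of FLCNKO replicate 2. Acta1, skeletal actin, had 13.29 and 13.32 in the libraries labelled FLCNKO, against 14.50 and 12.21 in WT. No marker of any list was at the lowest value of another library.

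All 11 fibroblast and matrix markers were lower in both libraries labelled FLCNKO (25.4% of all genes were), with summed levels of 19.27 and 19.21 in FLCNKO, against 20.31 and 20.18 in WT. Of 12 macrophage markers 11 were lower without overlap, with summed levels of 17.11 and 16.84 in the libraries labelled FLCNKO, against 17.93 and 17.71 in WT. The 10 brown and beige adipocyte markers had 7 higher without overlap (29.2% of all genes), with summed levels of 17.76 and 16.55 in the libraries labelled FLCNKO, against 14.49 and 13.90 in WT. The other 3 overlapped: Ucp1 (log2 fold change 2.92), Dio2 (-0.080) and Prdm16 (0.016). The 12 white adipocyte markers were all present, and 9 had a log2 fold change below 0. Without overlap, 3 were lower (25.4% of all genes) and 1 higher (29.2% of all genes). The lower ones were Cfd (-1.13), Adipoq (-0.46) and Retn (-0.44), and the higher one was Cd36 (0.43). Summed levels of the list were 22.03 and 22.16 in the libraries labelled FLCNKO, against 22.21 and 22.17 in WT. These sums rest largely on the most abundant markers, where libraries share exact values in the steps of the deposited scale. Lpl, for example, sat at 19.80 in FLCNKO replicate 1 and in both WT libraries. Endothelial markers had summed levels of 15.29 and 15.65 in the libraries labelled FLCNKO, against 15.46 and 15.43 in WT. The 4 measured epithelial markers had 9.12 and 9.35 in the libraries labelled FLCNKO, against 10.48 and 11.33 in WT. Of these, Trp63 fell (log2 fold change -2.52, limma adjusted p = 0.0478) and Cdh1 was lower without overlap (-0.86). Trp63, the largest part of each sum, had 8.13 and 7.88 in the libraries labelled FLCNKO, against 10.07 and 10.98 in WT. Krt8 (-0.014) and Krt18 (-0.46) overlapped between groups. The listed epithelial markers Krt5, Krt14, Krt15, Epcam and Elf5 had no value. The part of these cell types in the members' differences was not tested.

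**Figure D4:**
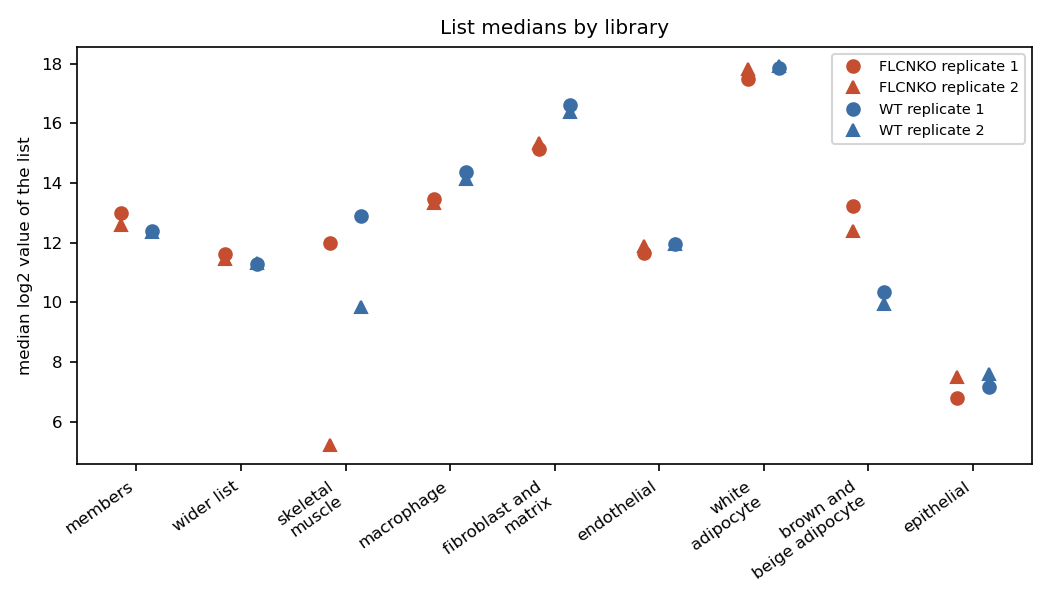
Median log2 value (vertical axis) of the 44 members, the wider list and each marker list in each library, with FLCNKO in red left of WT in blue, circles for replicate 1 and triangles for replicate 2. The members lie at 13.01 and 12.60 in FLCNKO, against 12.39 and 12.36 in WT, and the muscle markers range from 5.21 to 12.89.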

How the data were processed

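RNA was extracted with Trizol and purified on columns before library preparation, per the labels' protocols. The authors deposited 1 table per library of log2 values for 13677 Ensembl genes. STAR, limma and build mm9 are named per the submitters' processing notes, while the counting program, annotation and strand setting are not given. The log2 values are not per total reads and share nearly the same distribution in the 4 libraries, so whole reads were not recovered and the depth, and any interval that needs it, cannot be stated. Ensembl identifiers were paired with symbols for 13592 genes. The sequence tables are of another build than mm9.

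Groups came from the library titles. FLCNKO was compared with WT by limma 3.58.1 (R 4.3.3) with group as the only term, all 13677 genes, a mean-variance trend, two-sided tests and Benjamini-Hochberg adjustment with a threshold of 0.05 (2 residual and 3.09 prior degrees of freedom). The fit was also run on simulated data with variances drawn from its own fitted prior, so that run cannot check the prior. The members and lists were chosen with earlier results of these data known. Values per library are given for members past the threshold, the 12 largest differences, the smallest p of each function group, and Nrf1, Gabpa and Tfam. Alternatives were leaving out each library, keeping only genes with a mean of 8 or more, repeated quantile normalization, centring on genes with a mean of 12 or more, no trend, a robust prior and a block for the replicate number. Python 3.11.15, scipy 1.17.1 and matplotlib 3.10.9 were used for permutation tests and figures.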

Additional observations from a re-analysis of the deposited data

How the results depend on the processing

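Of 44 members, 39 kept the sign of their log2 fold change in every alternative tried. The other 5 turned only where 1 library was left out, with ranges of -0.10 to 0.37 for Tfam, -0.35 to 0.20 for Polg2, -0.00085 to 0.38 for Tomm22, -0.076 to 0.17 for Yme1l1 and -0.051 to 0.088 for Fis1. The members' median ran from 0.42 to 0.61 when 1 library was left out. Of the 44, 25 moved by no more than 1.5 times when any 1 library was left out and 19 moved further, including, without FLCNKO replicate 1, Timm17a to 0.40, Hspa9 to 0.42, Phb2 to 0.34, Gabpa to 0.26 and Clpx to 0.17, and, without WT replicate 2, Nrf1 to -0.13. The fission median was 0.20 without FLCNKO replicate 1 and 0.57 without FLCNKO replicate 2.

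Leaving out any 1 library ended all calls: 0 to 0 members, genes of the wider list and genes of the whole table, higher and lower, while members higher at an unadjusted p under 0.05 ran from 15 to 35 and all genes from 756 to 1733 higher and 639 to 1722 lower. Each such fit has 1 library fewer, and in 1 group the lone library is assumed to vary like the others. Without the trend limma also called 0 members, 0 genes of the wider list and 0 of all genes (1508 higher and 1194 lower at an unadjusted p under 0.05), and the cause was not tested. With genes of a mean of 8 or more alone, 5 members (Chchd10, Spg7, Afg3l2, Immt and Letmd1) and 3 genes of the wider list were called higher, beside 187 higher and 138 lower of all genes. With a robust prior 4 members and 4 genes of the wider list were called higher, beside 201 higher and 143 lower of all genes.

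With the replicate number as a block, 7 members, 9 genes of the wider list and, of all genes, 401 higher and 441 lower were called. The numbers are shared by the groups, but no label says what they pair. The correlation of same-numbered libraries' deviations from their group means was 0.36 over all genes and 0.12 over the members. Over the 11311 genes with a mean of 8 or more it was 0.44. Limma called 0 members lower in every alternative, with 0 at an unadjusted p under 0.05. The unknown depth limits the low values, such as those of Timm23.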

Other observations

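The files also hold 12 genes of the mitochondrial genome itself, looked up after the other values were seen. All 12 had a log2 fold change above 0, and in 11 both libraries labelled FLCNKO lay above both WT libraries (29.2% of all genes do). Their median log2 fold change was 0.78, and their library medians were 18.05 and 17.60 in the libraries labelled FLCNKO, against 17.18 and 17.15 in WT. The most abundant, mt-Co1, a subunit of complex IV, sat at 21.66 in both libraries labelled FLCNKO, against 20.88 in both WT libraries. Libraries share such top values in the deposited scale: mt-Cytb sat at 20.88 in both libraries labelled FLCNKO, the WT value of mt-Co1. For the most abundant of these genes, the size, separation and spread of a difference follow the steps of that scale. They are not measured there. The median of 0.78 rests on mt-Co1 (0.78) and mt-Cytb (0.77).

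The 1 gene of the 12 that passed the threshold was mt-Nd6, a complex I subunit read from the other strand of the circle than the rest of the subunit genes. It had 12.37 and 11.63 in the libraries labelled FLCNKO, against 9.67 and 9.85 in WT, and rose by 2.24 ± 0.27 on the log2 scale (SE; limma adjusted p = 0.0419), a call lost, like those of all genes, when any 1 library was left out. The strand setting is not given in the sources used here, so reads of the opposite strand cannot be told apart. The transfer RNA genes mt-Tw, mt-Tm and mt-Ti had log2 fold changes of 3.28, 2.82 and 2.79 (limma adjusted p = 0.0641, 0.103 and 0.0906), from low values. The ribosomal RNA genes mt-Rnr1 and mt-Rnr2 had 0.56 and 0.92.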
